A study of Mus musculus with 24 samples.

Results

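Transcripts of 10 genes of pericytes and smooth muscle were followed through mouse tumours treated with BMS754807, hydroxychloroquine or both. The genes were taken from a list of symbols, Acta2, Cnn1, Tagln, Myh11, Rgs5, Pdgfrb, Cspg4, Notch3, Des and Mcam, by matching the symbol in the platform annotation. All 10 were found among 19505 named genes, each with 1 probe set. The series, on pancreatic ductal adenocarcinoma by its title, held 24 Clariom S arrays, 1 per tumour, in 4 groups of 6. The control tumours were labelled as treated with vector, and the other groups received BMS754807 (which blocks the kinases IGF1R and IR, the receptors of insulin-like growth factor and of insulin), hydroxychloroquine (a drug that raises lysosomal pH and blocks the end of autophagy), or both, called the combination. The labels used here give no dose, treatment time, tumour model or age. They also leave unsaid whether each tumour came from its own animal, so errors and p-values measure only the spread between these samples.

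Mural cells wrap the endothelial tube. Pericytes sit on capillaries, where the receptor Pdgfrb answers the ligand Pdgfb released by endothelium, and smooth muscle cells ring larger vessels and contract through actin and myosin. Contractile genes such as Acta2 and Tagln are switched on through serum response factor and its partners of the myocardin family, which act at a DNA element called the CArG box. In pancreatic tumours the same contractile genes are also a mark of activated fibroblasts, so no single member is specific to vessels. In RNA from whole tumour tissue, fewer cells of a type and less RNA per cell cannot be told apart.

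The 2 upstream sequences printed here belong to Acta2, the best known contractile gene, and Cnn1, the member with the largest group differences relative to its error. Both are the 250 bases before the annotated start, 5′ to 3′ on the gene's strand, from RefSeq on GRCm38.p6: Acta2 at chr19:34255374-34255623 on the minus strand and Cnn1 at chr9:22099003-22099252 on the plus strand. Capitals mark every match to the motifs searched.
Acta2: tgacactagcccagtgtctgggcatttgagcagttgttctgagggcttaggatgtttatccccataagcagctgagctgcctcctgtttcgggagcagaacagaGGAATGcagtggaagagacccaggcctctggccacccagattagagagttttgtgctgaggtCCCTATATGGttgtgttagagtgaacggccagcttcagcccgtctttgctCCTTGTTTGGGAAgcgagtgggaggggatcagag
Cnn1: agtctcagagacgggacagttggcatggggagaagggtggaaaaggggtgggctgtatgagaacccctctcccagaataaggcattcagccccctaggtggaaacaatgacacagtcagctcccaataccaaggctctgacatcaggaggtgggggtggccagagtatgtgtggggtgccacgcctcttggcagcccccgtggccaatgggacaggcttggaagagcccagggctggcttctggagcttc
The motifs, searched on both strands, were the CArG box (CC, then 6 bases that are A or T with at most 1 C or G allowed, then GG), CATTCC, a core bound by TEAD factors, and TGGGAA, a core bound by RBPJ, the DNA-binding partner of Notch receptors. The Acta2 window held CCCTATATGG at 84 to 75 bases before the start and CCTTGTTTGG at 34 to 25 bases before it. It also held GGAATG, the reverse complement of CATTCC, at 146 to 141 bases before the start, and TGGGAA at 27 to 22 bases, overlapping the second CArG box. A CArG box of this kind was found in 8.59% of 32851 promoter windows, a box with a core of A and T alone in 1.47%, CATTCC in 12.6% and TGGGAA in 21.6%. Windows of 7 of the 10 members were searched, without Tagln, Myh11 and Pdgfrb, and those of Cnn1, Rgs5, Cspg4, Notch3, Des and Mcam held no match. The arrays measured transcripts and not binding, so a match here is only a description of the sequence.

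Values are log2 signal, so a difference of 1 is a doubling, and signals of different probe sets were not compared with each other. The array medians lay between 6.79 and 7.03. In each of the comparisons below, limma called 0 of 19505 genes at an adjusted p under 0.05 (percent called 0), and therefore 0 of the 10 members. Members past an unadjusted p under 0.05 are counted beside the share of all genes that did the same, and none of these counts is a call. The members differed more between tumours of the same group than most genes did. The within-group SD of Des, 2.37 log2, stood at percentile 99.9 of all genes, those of Rgs5, Mcam, Pdgfrb, Cnn1 and Tagln at percentiles 96.9, 96.4, 94.4, 92.5 and 91.5, and those of Acta2, Notch3, Myh11 and Cspg4 at 87.5, 84.5, 72.9 and 69.5. The median SD over all genes was 0.327. By limma's arrayWeights, which weighs an array by how closely it follows its group, the 3 lowest weights went to BMS754807 tumour 6 (0.419), control tumour 5 (0.518) and hydroxychloroquine tumour 4 (0.593). These same tumours were among the 3 highest of all 24 for 7, 6 and 6 of the 10 members. A fit without these 3 arrays was added after the values were seen. Its values, or those without 1 tumour, are given beside member differences that they move by over 1.5 times.

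**Figure D1:**
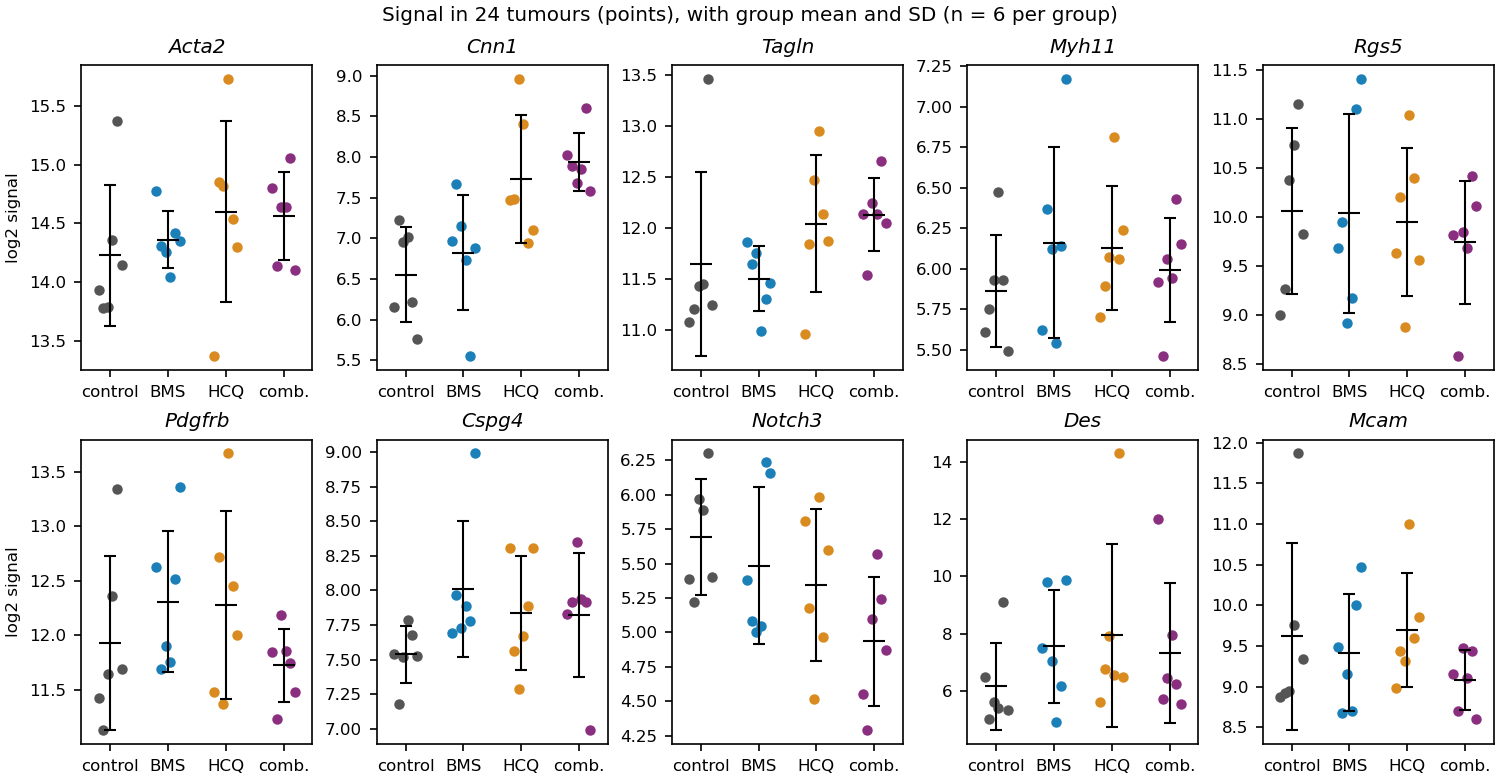
Log2 signal of the 10 genes in each tumour (points; 6 per group: control, BMS754807 as BMS, hydroxychloroquine as HCQ, combination as comb.), with the group mean and SD as bars; the axes differ between panels and do not start at 0. For Cnn1 the lowest combination tumour (7.58) lies above the highest control tumour (7.22), while the groups overlap for the other 9 genes, and 1 control tumour stands high for Acta2, Tagln, Des and Mcam.

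Cnn1, which encodes calponin, an actin-binding protein of smooth muscle, was higher in the tumours that had received hydroxychloroquine, alone or in the combination, although the difference did not pass the adjusted threshold. Its signal was dim in control tumours, where it ran from 5.76 to 7.22 (median 6.59) with a mean of 6.55, below the array medians of 6.79 to 7.03. In BMS754807 tumours it ran from 5.55 to 7.67 (median 6.93). With hydroxychloroquine it ran from 6.94 to 8.96 (median 7.48) and in the combination from 7.58 to 8.60 (median 7.87). All 6 combination tumours were above all 6 control tumours, while the hydroxychloroquine and BMS754807 tumours overlapped with control. The combination exceeded control by 1.39 ± 0.34 (SE), a 2.61-fold difference with a 95% interval of 0.68 to 2.09 log2 and an adjusted p of 0.849 in limma. By unadjusted p it ranked 5 of 19505 genes. The exact permutation test over the 12 tumours gave p = 0.00216, the smallest that 6 against 6 can give. Groups separate in this way, with every combination tumour higher, for 0.2% of all genes, and 1 of the 10 members was among them; 0.108% of genes were separate in the other direction, and 0 members.

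Hydroxychloroquine alone exceeded control for Cnn1 by 1.17 ± 0.34 (2.26-fold; adjusted p = 0.939 in limma, exact permutation p = 0.0152), with all 6 tumours above the control mean. The combination exceeded BMS754807 alone by 1.11 ± 0.34 (adjusted p = 0.357 in limma, exact permutation p = 0.00433), again in 6 of 6 tumours. BMS754807 alone differed from control by 0.27 ± 0.34 and the combination from hydroxychloroquine by 0.21 ± 0.34, both smaller than their errors. Leaving out 1 tumour, they lay between 0.10 (without BMS754807 tumour 2) and 0.53 (without BMS754807 tumour 5), and between 0.05 (without hydroxychloroquine tumour 5) and 0.46 (without hydroxychloroquine tumour 3). The difference that BMS754807 made with hydroxychloroquine minus that without it, the interaction, was -0.06 ± 0.48, with a 95% interval of -1.06 to 0.94, and -0.32 without BMS754807 tumour 5 and 0.19 without hydroxychloroquine tumour 3. With the 12 tumours that received hydroxychloroquine set against the 12 that did not, a comparison added after the values were seen, the difference was 1.14 ± 0.24 (2.21-fold, 95% interval 0.64 to 1.64). Its adjusted p was 0.171 in limma, rank 10 of 19505, and over 34 refits under other settings the value lay between 1.02 and 1.23 and the adjusted p between 0.0927 and 0.329. Leaving out 1 tumour at a time kept the combination at 1.23 to 1.52 above control and hydroxychloroquine at 0.93 to 1.33. Without the 3 arrays of lowest weight these differences were 1.32 ± 0.37 and 0.97 ± 0.38. The 4 group means of Cnn1 took up 50.7% of its variance, against a median of 12.2% over all genes, and the test for any difference among the groups gave an adjusted p of 0.388 (rank 42). Cnn1 was the only member of the 10 with an unadjusted p under 0.05 in that test, which 7.21% of all genes passed at that level.

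Acta2 encodes smooth muscle actin and Tagln encodes transgelin, an actin cross-linking protein. Acta2 ran from 13.78 to 15.37 in control tumours (median 14.04). It ran from 14.04 to 14.78 with BMS754807 (median 14.33), from 13.37 to 15.73 with hydroxychloroquine (median 14.68) and from 14.10 to 15.06 in the combination (median 14.64). The groups overlapped, and control tumour 5 at 15.37 stood above the other 5 control tumours, which ended at 14.36. The differences of Acta2 from control were 0.13 ± 0.29 for BMS754807, 0.37 ± 0.29 for hydroxychloroquine and 0.33 ± 0.29 for the combination. Without control tumour 5 the BMS754807 and combination differences were 0.36 and 0.56. That for hydroxychloroquine was 0.15 without hydroxychloroquine tumour 4 and 0.62 without hydroxychloroquine tumour 1. In the fit without the 3 low-weight arrays the values were 0.36 ± 0.24, 0.37 ± 0.24 and 0.56 ± 0.23 in the same order (adjusted p = 0.834, 0.892 and 0.976 in limma).

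Tagln ran from 11.08 to 13.46 in control tumours (median 11.34). It ran from 10.99 to 11.86 with BMS754807 (median 11.56), from 10.96 to 12.95 with hydroxychloroquine (median 12.01) and from 11.54 to 12.66 in the combination (median 12.14). Control tumour 5 was again apart, at 13.46 with the other 5 at or below 11.45, and it was the highest of all 24 tumours. The combination exceeded control by 0.49 ± 0.33 with this tumour in the fit (adjusted p = 0.944 in limma) and by 0.85 without it. Without the 3 low-weight arrays the difference was 0.85 ± 0.22 (adjusted p = 0.934 in limma). Against BMS754807 alone, the combination was higher by 0.63 ± 0.33, with all 6 tumours above the BMS754807 mean (adjusted p = 0.613 in limma, exact permutation p = 0.0108). Over both backgrounds, hydroxychloroquine tumours were higher for Tagln by 0.51 ± 0.23 (adjusted p = 0.588 in limma), and by 0.60 ± 0.16 without the 3 arrays (adjusted p = 0.284). Acta2, by the same comparison, differed by 0.29 ± 0.21 with all arrays and by 0.17 without hydroxychloroquine tumour 4.

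Myh11, the smooth muscle myosin heavy chain and the member most confined to mature smooth muscle, did not pass the adjusted threshold in any comparison. Its group means were 5.86 ± 0.34 (SD, n = 6) in control, 6.16 ± 0.59 with BMS754807, 6.13 ± 0.38 with hydroxychloroquine and 5.99 ± 0.32 in the combination. The highest of the 24 values, 7.17, belonged to BMS754807 tumour 6. The differences from control were 0.30, 0.27 and 0.13 for BMS754807, hydroxychloroquine and the combination, with an SE of 0.23. The first was 0.09 without BMS754807 tumour 6 and the second 0.13 without hydroxychloroquine tumour 4. That of the combination lay between 0.04, without combination tumour 5, and 0.25, without control tumour 4. Without the 3 low-weight arrays the 3 values were 0.11 ± 0.20, 0.14 ± 0.20 and 0.14 ± 0.19.

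Des encodes desmin, the intermediate filament of muscle cells, which is present in pericytes, in smooth muscle and in skeletal muscle. Its signal ran from 5.02 to 9.12 in control (median 5.50) and from 4.91 to 9.88 with BMS754807 (median 7.28). It ran from 5.62 to 14.30 with hydroxychloroquine (median 6.67) and from 5.55 to 12.0 in the combination (median 6.35). The spread came from 5 tumours, namely control 5, BMS754807 2 and 6, hydroxychloroquine 5 and combination 1, in which Des was 9.12 or higher, while the other 19 lay between 4.91 and 7.96. In the same 5 tumours the score of 20 skeletal muscle markers such as Acta1, Ckm and Tnnt3 (the mean of each marker's value minus its mean over the 24 tumours) was 2.80 to 6.16. In the other 19 the score lay between -1.93 and 0.50. Since the tumours fall into separate clusters, no correlation over all 24 is given. Within the 19, Des and the score correlated with r = 0.81 (permutation p = 3e-05, adjusted over the 10 members 0.0003) and rho = 0.66 (p = 0.00279, adjusted 0.0279). The scores of the 19 left a further gap, from -1.64 to -0.65. Des was 4.91 to 6.57 in the tumours below this gap and 6.48 to 7.96 in those above it. The r and rho therefore include the step between these clusters, and a graded relation inside either was not tested. Tnnc2, Trdn and Ryr1, of the skeletal muscle contraction machinery, ranked as most like Des by the rule used for the other members, a ranking over all 24 tumours and so set largely by these 5. Within the 19, as a description and across the same further gap, their r with Des was 0.71, 0.74 and 0.77. The differences of Des from control were 1.40 ± 1.27 for BMS754807, 1.79 ± 1.27 for hydroxychloroquine and 1.16 ± 1.27 for the combination. They moved to 0.52 without hydroxychloroquine tumour 5 and to 0.23 without combination tumour 1. Without the 3 low-weight arrays, none of which is either of those tumours, the values were 1.52 ± 1.35, 2.65 ± 1.35 and 1.76 ± 1.29. With the muscle score as a covariate the 3 differences were 0.38 ± 0.34, 0.85 ± 0.34 and 0.87 ± 0.34, with adjusted p-values between 0.880 and 0.983 in limma.

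The remaining members encode signalling and surface proteins of pericytes, none of them specific to these cells. Rgs5, a regulator of G protein signalling that is abundant in pericytes, ran from 9.0 to 11.16 in control (median 10.11) and from 8.92 to 11.41 with BMS754807 (median 9.82). It ran from 8.88 to 11.04 with hydroxychloroquine (median 9.92) and from 8.58 to 10.42 in the combination (median 9.84). The 4 ranges overlapped, and both the lowest and the highest value of the combination lay below those of the other groups. The differences from control were -0.03 ± 0.44, -0.11 ± 0.44 and -0.32 ± 0.44, all smaller than their errors. Leaving out 1 tumour at a time they ran from -0.30 to 0.20, from -0.33 to 0.11 and from -0.53 to -0.09, and without the 3 low-weight arrays the combination differed by -0.10 ± 0.39.

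Pdgfrb, the receptor through which endothelium recruits pericytes, had means of 11.93 ± 0.80 (SD, n = 6) in control, 12.31 ± 0.65 with BMS754807, 12.28 ± 0.86 with hydroxychloroquine and 11.73 ± 0.33 in the combination. The combination was lower than BMS754807 alone by 0.58 ± 0.37 and lower than hydroxychloroquine alone by 0.56 ± 0.37, with all 6 combination tumours below the mean of each single agent. The first difference was -0.37 without BMS754807 tumour 6 and the second -0.28 without hydroxychloroquine tumour 4, and without the 3 low-weight arrays they were -0.37 ± 0.26 and -0.28 ± 0.26. The interaction of Pdgfrb was -0.93 ± 0.53 (adjusted p = 0.951 in limma), and -0.73 ± 0.38 without the 3 arrays. Of the 10 members, 9 had an interaction below 0 and 0 had an unadjusted p under 0.05, a level reached by 5.05% of all genes. Among the 9, the interactions of Acta2, Cnn1, Rgs5, Notch3 and Mcam were smaller than their SE. The median interaction of the members was -0.31 with all arrays and -0.14 without the 3 low-weight arrays, when 7 members were below 0, and the median over all genes was 0.0067.

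Notch3, the Notch receptor of mural cells, had its lowest signals in the combination, without passing the adjusted threshold. Its probe set was dim, with a mean signal not above the median over all genes, as was that of Myh11. Notch3 ran from 5.22 to 6.30 in control (median 5.65) and from 5.00 to 6.24 with BMS754807 (median 5.23). With hydroxychloroquine it ran from 4.52 to 5.98 (median 5.39) and in the combination from 4.29 to 5.57 (median 4.99). All 6 combination tumours were below the control mean of 5.70, and the groups overlapped. The difference was -0.76 ± 0.28, 0.591 of the control signal, with an adjusted p of 0.944 in limma and an exact permutation p of 0.0216. It lay between -0.89 and -0.63 when single tumours were left out and was -0.64 ± 0.26 without the 3 low-weight arrays. The score of 18 epithelial and ductal markers such as Epcam and Krt19, with which Notch3 correlated inversely, was higher in combination tumours (median 0.390, range -0.309 to 0.666) than in control (median -0.0972, range -0.821 to 0.351). With this score as a covariate the Notch3 difference was -0.52 ± 0.25 (adjusted p = 0.999 in limma). Over both backgrounds, hydroxychloroquine tumours were lower for Notch3 by 0.45 on the log2 scale (-0.45 ± 0.20, adjusted p = 0.562 in limma).

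Cspg4, the proteoglycan known as NG2 on the pericyte surface, ran from 7.18 to 7.79 in control (median 7.54) and from 7.69 to 8.99 with BMS754807 (median 7.84). The difference was 0.47 ± 0.23 (adjusted p = 0.847 in limma, exact permutation p = 0.0130), with all 6 BMS754807 tumours above the control mean. It was 0.27 without BMS754807 tumour 6, at 8.99 the highest of all 24 tumours. Hydroxychloroquine and the combination differed from control by 0.30 ± 0.23 and 0.29 ± 0.23, the latter lying between 0.18 (without combination tumour 3) and 0.45 (without combination tumour 6). Mcam, an adhesion molecule of mural and endothelial cells also known as CD146, ran from 8.87 to 11.87 in control (median 9.14) and from 8.60 to 9.47 in the combination (median 9.14). All 6 combination tumours were below the control mean, which rested on control tumour 5: the difference was -0.54 ± 0.42 with it and -0.09 without it. The combination and hydroxychloroquine alone differed by -0.62 ± 0.42 for Mcam, by -0.36 without hydroxychloroquine tumour 4, and by -0.36 ± 0.24 without the 3 low-weight arrays.

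**Figure D2:**
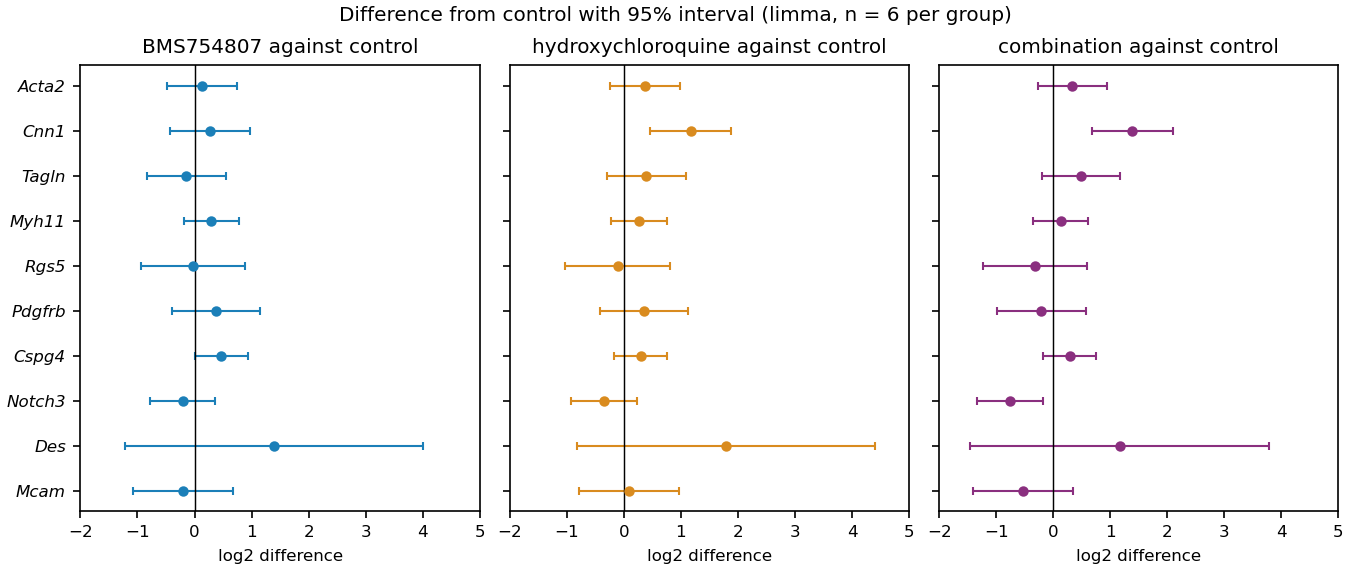
Log2 difference from control of each gene (point) with its 95% interval (bar) from limma, for BMS754807, hydroxychloroquine and the combination, 6 tumours per group. The intervals of Cnn1 lie above 0 with hydroxychloroquine (from 0.47) and in the combination (from 0.68), that of Notch3 lies below 0 in the combination, and that of Cspg4 with BMS754807 starts just above 0; no difference passed the adjusted threshold.

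Counted by comparison, and with the same 6 control tumours in the first 3, few members stood apart. The counts above 0 include differences smaller than their SE. BMS754807 against control had 1 member with an unadjusted p under 0.05 in the higher direction, Cspg4 (2.78% of all genes), and 0 in the lower (3.09%), with 6 of 10 differences above 0 and a median of 0.20 against 0.0017 over all genes. Hydroxychloroquine against control had 1 higher, Cnn1 (2.43% of all genes), and 0 lower (2.38%), with 8 of 10 above 0 and a median of 0.32 against 0 over all genes. The combination against control had 1 higher, Cnn1 (2.66%), and 1 lower, Notch3 (2.39%), with 6 of 10 above 0 and a median of 0.21 against 0.0067. The combination against BMS754807 had 1 higher, Cnn1 (5.13%), and 0 lower (3.48%), with a median of -0.21. The combination against hydroxychloroquine had 0 higher (2.8%) and 0 lower (2.59%), with a median of -0.17. Without the 3 low-weight arrays these medians were 0.02 and -0.02. No member's groups were separate in the other comparisons of groups. Among all genes, separate groups were found upward and downward for 0.103% and 0.0718% with BMS754807 against control, and for 0.0615% and 0.0923% with hydroxychloroquine against control. The corresponding shares were 0.472% and 0.179% for the combination against BMS754807 and 0.154% and 0.113% for it against hydroxychloroquine. Hydroxychloroquine over both backgrounds had 2 members higher at an unadjusted p under 0.05, Cnn1 and Tagln (4.54% of all genes), and 1 lower, Notch3 (3.55%). BMS754807 over both backgrounds had 0 of 10 (5.72% of all genes). Without the 3 low-weight arrays, 0 members passed the adjusted threshold in any comparison. Of the members with an unadjusted p under 0.05 in that fit, Acta2, Cnn1 and Tagln were higher in the combination than in control (2.32% of all genes) and Notch3 was lower (2.57%). With hydroxychloroquine, Cnn1 and Tagln were higher (2.66%) and 0 members lower (2.98%), and with BMS754807 there were 0 higher (2.95%) and 0 lower (3.96%).

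Some of the members also varied together between tumours. Of 45 pairs, 37 had a correlation above 0 over the 24 tumours, with a median r of 0.34. A permutation p under 0.05 after Benjamini-Hochberg adjustment over the 45 was found for 13. The share among all pairs of genes was not computed for either count. Of the 13 pairs, 5 also held by Spearman's rho, with group means removed, and without 2 tumours. Those 2 were the farthest from the median of the first-named gene, so extreme tumours of the second could remain. Acta2 and Tagln had r = 0.87 and rho = 0.83 (permutation p = 1e-05, the smallest the resampling can give, and 3e-05, adjusted 0.000225 and 0.000675). Without control tumour 5 and hydroxychloroquine tumour 4 their r was 0.81, and with group means removed it was 0.88. Among 19504 other genes, Tagln ranked 2 for likeness to Acta2, and Acta2 ranked 2 for likeness to Tagln.

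The other 4 such pairs joined Rgs5, Pdgfrb, Mcam and Notch3. For Pdgfrb with Mcam, BMS754807 tumour 6 and hydroxychloroquine tumour 4 were left out, and control tumour 5 stayed in. For the pairs of Rgs5, control tumour 5 and BMS754807 tumour 6 were left out, and hydroxychloroquine tumour 4 stayed in. Pdgfrb and Mcam had r = 0.86 and rho = 0.83 (permutation p = 1e-05 for both, adjusted 0.000225 and 0.00045), with r = 0.81 without 2 tumours. Rgs5 and Pdgfrb had r = 0.77 and rho = 0.67 (permutation p = 3e-05 and 0.00044, adjusted 0.00045 and 0.0066), with r = 0.68 without 2 tumours. Rgs5 and Notch3 had r = 0.73 and rho = 0.60 (permutation p = 0.00012 and 0.00222, adjusted 0.00108 and 0.0143), with r = 0.64 without 2 tumours. Rgs5 and Mcam had r = 0.71 and rho = 0.62 (permutation p = 8e-05 and 0.00155, adjusted 0.0009 and 0.0116), with r = 0.62 without 2 tumours. Among 19504 other genes, Mcam ranked 15 for likeness to Pdgfrb, and Pdgfrb 14 for likeness to Mcam. Pdgfrb ranked 82 for Rgs5, and Rgs5 168 for Pdgfrb. Notch3 ranked 184 for Rgs5, and Rgs5 28 for Notch3. Mcam ranked 348 for Rgs5, and Rgs5 410 for Mcam. Acta2 and Tagln had no such relation with Notch3 (r = 0.09 and 0.02). Cspg4 correlated with none of the other members at the adjusted threshold, its r lying between -0.10 with Tagln and 0.41 with Myh11. The only inverse pair at that threshold was Cnn1 and Notch3 (r = -0.50, rho = -0.48, permutation p = 0.0130 and 0.0185, adjusted 0.0451 and 0.0594). That relation was r = -0.28 with group means removed and -0.31 without 2 tumours, neither past the threshold. Cnn1 and Acta2 had r = 0.34 (adjusted permutation p = 0.186). Cnn1 and Tagln had r = 0.44 and rho = 0.55 (adjusted permutation p = 0.0865 and 0.0224), with r = 0.25 once group means were removed.

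**Figure D3:**
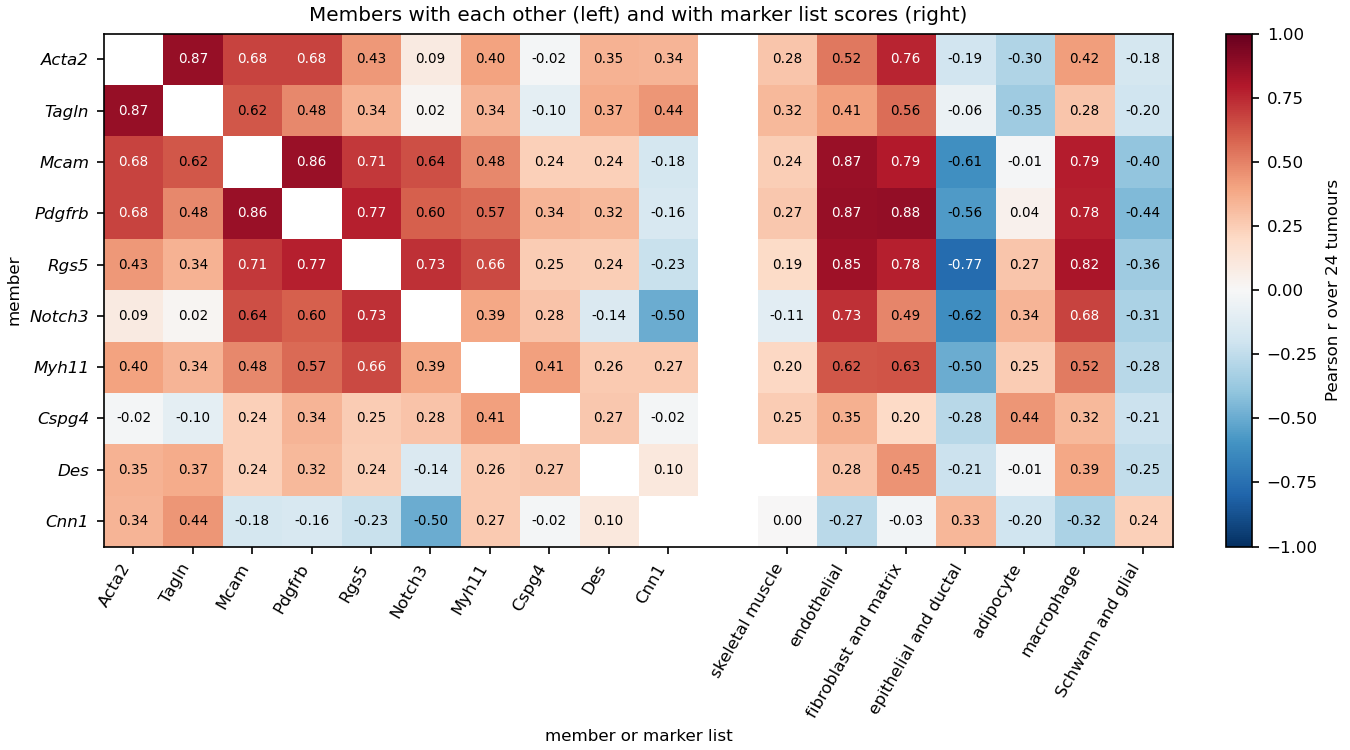
Pearson r over the 24 tumours of the 10 genes with each other (left block) and with the scores of 7 marker lists (right block), coloured from -1 (blue) to 1 (red); the cell of Des with skeletal muscle is blank because the tumours form separate clusters there. Acta2 pairs with Tagln (0.87), and the strongest r of Cnn1 is -0.50, with Notch3. Rgs5, Pdgfrb, Mcam and Notch3 correlate with each other and with both the endothelial (0.73 to 0.87) and macrophage (0.68 to 0.82) scores.

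Set beside markers of other cell types, Pdgfrb, Mcam, Rgs5 and Notch3 correlated with the endothelial and macrophage scores. Of 69 correlations of members with 7 list scores, Des with skeletal muscle left out, 23 passed the adjusted threshold, and 14 did so under each of the other settings. The share of all genes that correlated so with these scores was not computed. Where 2 tumours were left out, they were those farthest from the median of the member, so tumours extreme for a score could remain. Control tumour 5 stayed in for Pdgfrb, BMS754807 tumour 6 for Mcam and Notch3, and hydroxychloroquine tumour 4 for Rgs5 and Notch3. Their endothelial scores were 1.37, 1.40 and 0.98. The endothelial score, from 16 markers such as Pecam1, Cdh5 and Kdr, correlated with Pdgfrb (r = 0.87, rho = 0.77), Mcam (r = 0.87, rho = 0.70), Rgs5 (r = 0.85, rho = 0.82) and Notch3 (r = 0.73, rho = 0.68). Their permutation p-values for r were 1e-05, 1e-05, 1e-05 and 2e-05 (adjusted 8.75e-05 for the first 3 and 0.00014 for Notch3), and without 2 tumours r was 0.81, 0.77, 0.80 and 0.68. Myh11 (r = 0.62, adjusted permutation p = 0.00731) and Acta2 (r = 0.52, adjusted 0.0305) also passed with this score. Without 2 tumours their r was 0.28 and 0.21, not past the threshold. The score of 19 fibroblast and matrix markers correlated with Pdgfrb (r = 0.88), Mcam (0.79), Rgs5 (0.78) and Acta2 (0.76), with adjusted permutation p-values of 8.75e-05, 0.00014, 8.75e-05 and 8.75e-05. Their rho values were 0.80, 0.77, 0.72 and 0.79, and without 2 tumours r was 0.81, 0.77, 0.70 and 0.64. Notch3 and the fibroblast score had r = 0.49 (adjusted permutation p = 0.0470) but rho = 0.43 (adjusted 0.108), and r = 0.33 without 2 tumours (adjusted 0.320). The score of 14 macrophage markers correlated with Rgs5 (r = 0.82, rho = 0.77), Mcam (r = 0.79, rho = 0.63), Pdgfrb (r = 0.78, rho = 0.58) and Notch3 (r = 0.68, rho = 0.63), with adjusted permutation p-values for r of 8.75e-05, 0.000215, 0.000175 and 0.0014. Without 2 tumours these r were 0.74, 0.68, 0.66 and 0.58. The epithelial and ductal score correlated inversely with Rgs5 (r = -0.77, rho = -0.68, adjusted permutation p = 0.000175 and 0.00248) and Notch3 (r = -0.62, rho = -0.53, adjusted 0.00593 and 0.0341). Tagln correlated with the fibroblast score less firmly, at r = 0.56 (adjusted permutation p = 0.0155) and 0.34 without control tumour 5 and hydroxychloroquine tumour 4. For Cnn1 the r with the 7 scores lay between -0.32 (macrophage) and 0.33 (epithelial), and none passed the threshold. How much of these relations lay in the cell makeup of the tissue samples was not tested.

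**Figure D4:**
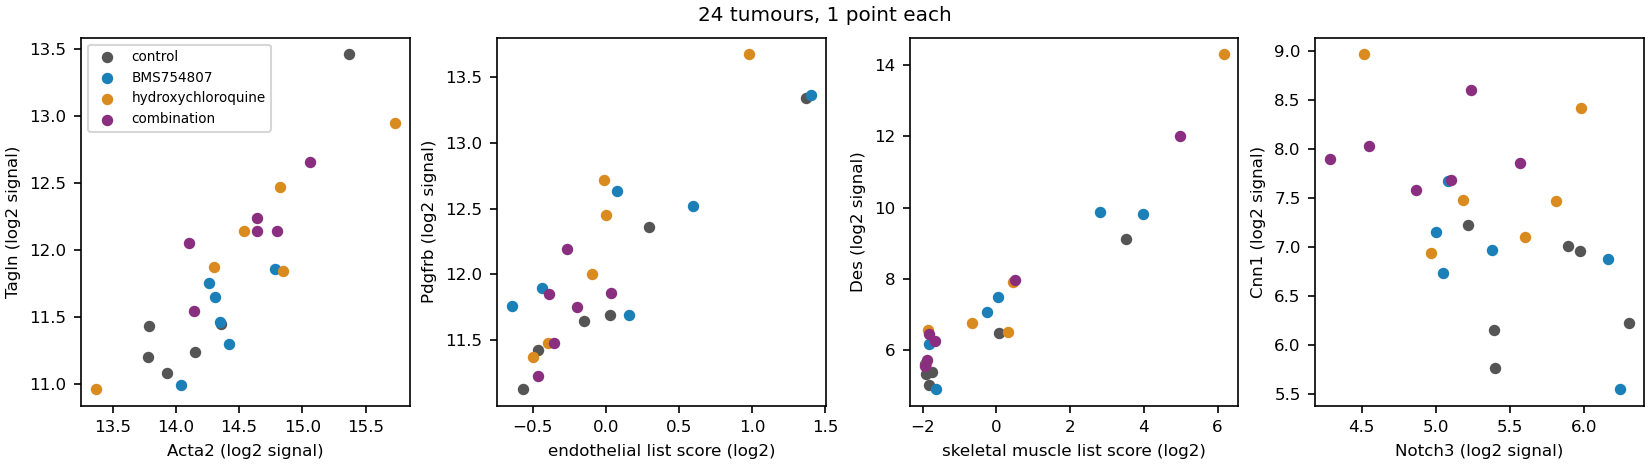
One point per tumour, coloured by group: Tagln against Acta2, Pdgfrb against the endothelial list score, Des against the skeletal muscle list score, and Cnn1 against Notch3, all in log2. The first pair of panels rise together (r = 0.87 in each), in the Des panel 5 tumours lie apart at scores above 2.8, and in the Cnn1 panel the combination tumours lie to the upper left.

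The genes whose patterns were most like those of the members, over the 24 tumours after removal of group means, were named by the size of r, up to 3 for each member. Closest to Acta2 were Kif26b (r = 0.90), Tagln (0.88) and Mrc2 (0.88), and closest to Tagln were Thbs1 (0.90), which encodes thrombospondin 1, Acta2 (0.88) and Myh10 (0.86), a non-muscle myosin. Closest to Pdgfrb were the collagen gene Col6a3 (0.95), Thy1 (0.93), a fibroblast surface marker, and Sema7a (0.93). Closest to Mcam were Sema7a (0.93), Cd93 (0.93), an endothelial receptor, and Csf1 (0.92), the macrophage growth factor. Closest to Rgs5 were Cd34 (0.92) and Plvap (0.90), both endothelial, and Pik3r3 (0.92). Notch3 was closest to Arhgdib (0.85), Abca1 (0.85) and Trim12a (0.84), and Myh11 to Slc24a3 (0.81), Sema3g (0.81) and Rab7b (0.80). The likeness was lower for Cspg4, with Csmd1 (0.74), Car4 (0.74) and Kng2 (0.71), and for Cnn1, with Zfyve16 (0.80), Esp4 (0.74) and Msx1 (0.69).

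The other genes of the contractile programme lay on both sides of control. Of 28 measured besides the members, 17 were above control with BMS754807, 19 with hydroxychloroquine and 13 in the combination, with medians of 0.04, 0.08 and -0.00083 log2. The medians over all genes were 0.0017, 0 and 0.0067. In the combination 2 of the 28 were higher at an unadjusted p under 0.05 (2.66% of all genes) and 0 were lower (2.39%). The higher ones were Actg2, smooth muscle gamma actin, by 1.13 ± 0.37, and Csrp1, a LIM protein of smooth muscle, by 0.34 ± 0.13 (adjusted p = 0.944 in limma for both). Csrp1 was also higher with hydroxychloroquine alone, by 0.29 ± 0.13 (adjusted p = 0.979). Of 14 transcription factors listed with this programme, 10 were above control in the combination (median 0.14). The list was not split into activators and repressors, so this count gives no direction for the programme. Myocd, the cofactor myocardin itself, was lower there by 0.43 on the log2 scale (-0.43 ± 0.16, adjusted p = 0.944 in limma). With BMS754807, Tcf21 was higher by 0.35 ± 0.15, and with hydroxychloroquine Elk1 by 0.31 ± 0.15, with adjusted p-values of 0.839 and 0.979 in limma.

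Of 20 other pericyte genes, 12 were above control with BMS754807, 13 with hydroxychloroquine and 9 in the combination (medians 0.11, 0.14 and -0.10). With hydroxychloroquine, 3 were higher at an unadjusted p under 0.05 (2.43% of all genes) and 2 were lower (2.38%). The higher ones were Ptn (0.82 ± 0.32), Vtn (0.71 ± 0.31) and Heyl (0.55 ± 0.24), a target of Notch, and Higd1b (-0.67 ± 0.26) was among the lower. Each of these 4 had an adjusted p of 0.979 in limma. None of the 20 reached that level with BMS754807 or in the combination, where the smallest p-values belonged to Kcnj8 (-0.62 ± 0.31) and Art3 (0.70 ± 0.38), and to Higd1b (-0.53 ± 0.26) and Cox4i2 (-0.32 ± 0.20). Of the 4 measured PDGF ligands, which act through Pdgfrb or its relative, 0, 3 and 2 were above control in the 3 comparisons. Pdgfb, the endothelial ligand of Pdgfrb, differed from control by 0.18 ± 0.19 with hydroxychloroquine and 0.28 ± 0.19 in the combination, within or near its error. Pdgfd differed by -0.18 ± 0.23 with BMS754807 and 0.24 ± 0.23 with hydroxychloroquine.

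Of 23 other Notch genes, 12, 11 and 14 were above control in the same order (medians 0.05, 0 and 0.02). Beside the lower Notch3 signal in the combination, 2 of the 23 were lower at an unadjusted p under 0.05 (2.39% of all genes). They were the target Hey1 (-0.72 ± 0.28) and the endothelial receptor Notch4 (-1.10 ± 0.46), with an adjusted p of 0.944 in limma for both. None was higher at that level (2.66% of all genes). With hydroxychloroquine, 2 of the 23 were higher at that level (2.43% of all genes) and 1 was lower (2.38%). The higher ones were Rfng, a modifier of Notch receptors (0.69 ± 0.23), and the target Heyl (0.55 ± 0.24), which was also in the pericyte list. The lower one was the ligand Dll1 (-0.48 ± 0.20), and each had an adjusted p of 0.979 in limma. In the combination 15 of 16 endothelial markers and 13 of 14 macrophage markers lay below control (medians -0.40 and -0.55), and 15 of 18 epithelial markers lay above it (median 0.20). The endothelial score ranged from -0.468 to 0.0335 in the combination and from -0.565 to 1.37 in control. That highest value belonged to control tumour 5, and the other control tumours ended at 0.298. The macrophage score ranged from -0.703 to 0.314 and from -0.373 to 1.21. Control tumour 5 was again the highest, and the other control tumours ended at 0.310. The marker counts and medians above were not recomputed without control tumour 5. The part of these scores in the lower Notch3, Hey1 and Notch4 signals was not tested beyond the epithelial covariate given for Notch3.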

How the data were processed

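RNA from 24 mouse tumours was measured on Clariom S arrays, from 250 ng of total RNA each, per the labels' protocols. Transcriptome Analysis Console 4.0 is named in the submitters' processing notes. The values the authors deposited were read as log2 signal of 22206 probe sets with 0 missing. Base and scale were inferred from their range, 1.45 to 19. Normalization and genome build were not given in the sources used here. The number of arrays sets the precision.

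Of the probe sets, 19572 had 1 gene symbol and 2634 none. The brightest of a gene was kept, which dropped 67 and left 19505 genes. All arrays entered 1 linear model of the 4 group means (limma 3.58.1, lmFit and eBayes, under R 4.3.3), checked on simulated data. Tests were two-sided, with Benjamini-Hochberg adjustment over 19505 genes. The comparisons with control share its 6 tumours. Exact permutation tests (scipy 1.17.1, numpy 2.4.6) covered each member in each comparison of groups, and correlations used 100000 permutations. Settings tried were a filter on dim genes, scaling, probe choice, moderation, array weights, a replicate block, fewer groups, marker scores as covariates and leaving tumours out.

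All 10 members were named, with the 3 genes most like each (predicted, olfactory and vomeronasal genes passed over). In each pathway list up to 4 genes with an unadjusted p under 0.05, or otherwise the 2 smallest, could be named. The members and lists were chosen with earlier results of these data known. The comparisons over both backgrounds and the fit without 3 arrays were added after the members' values were seen. Promoter sequences came from a RefSeq table on GRCm38.p6.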

Additional observations from a re-analysis of the deposited data

Results flagged for a closer look

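In 7 of the 40 sets of 6 tumours formed by 10 genes and 4 groups, 1 tumour lay so far from its group that its gap to the nearest other tumour, as a share of the group's range, exceeded the critical value of Dixon's test. Single groups meet this by chance at a rate of about 5%, and the members are correlated, so these are not independent. Control tumour 5 accounted for 4 of the 7: Acta2 at 15.37 (the other 5 between 13.78 and 14.36), Tagln at 13.46 (11.08 to 11.45), Des at 9.12 (5.02 to 6.48) and Mcam at 11.87 (8.87 to 9.76). For Des, hydroxychloroquine tumour 5 stood at 14.30 (the other 5 between 5.62 and 7.92) and combination tumour 1 at 12.0 (5.55 to 7.96). For Cspg4, BMS754807 tumour 6 stood at 8.99 (the other 5 between 7.69 and 7.97).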

How the results depend on the processing

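Of 80 member differences, 35 were at least as large as their SE. The others are not read for direction singly, but the counts of members above or below 0 include them. Of the 1237 refits of these smaller differences, 111 changed sign. In 2154 refits of all 80, 0 passed the adjusted threshold and 0 of the 35 changed sign, with a smallest adjusted p of 0.0927 (Cnn1, hydroxychloroquine over both backgrounds; range over its 34 refits 0.0927 to 0.329). The filter on dim genes left out Myh11 and Notch3. Counts of genes past the threshold, 0 in the report, became 1 for hydroxychloroquine against control with the replicate block. For hydroxychloroquine over both backgrounds they became 6 above the median signal, 5 with trended robust moderation, 1 with the replicate block, 1 with the muscle covariate, and 0 to 2 when 1 tumour was left out. For any difference they became 2 above the median signal, 2 with trended robust moderation, and 0 to 1 when 1 tumour was left out. Leaving out 1 tumour gave 0 to 1 for BMS754807 against control and for the combination against BMS754807. In the comparisons of groups and over both backgrounds, none of these genes was a member. The causes were not tested. Replicate numbers showed no clear pairing of the tumours. Over 36 same-numbered pairs the correlation of deviations ran from -0.251 to 0.305, with a median of -0.00753 against 0.0042 for different numbers. Of 24 tumours, 6 correlated best with one of their own number. The number due to chance was not computed, so a weak pairing could be missed. Member pairs past the threshold numbered 13, and 5 without the 2 tumours farthest from the median of the first gene of the pair. With 6 arrays a group, differences below their SE were not resolved.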
